A study of Mus musculus with 35 samples.

Results

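Effector cytokines and chemokines are the proteins that cytotoxic CD8+ T lymphocytes (CTLs) secrete to act on other cells. A total of 9 of their genes, listed by symbol, were found among the 48709 genes of the count tables. They were the cytokine genes Ifng, Tnf, Lta, Csf2 and Il2 and the chemokine genes Ccl3, Ccl4, Ccl5 and Xcl1. Of these, 8 had enough counts to be tested, and Il2 did not.

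RNA was sequenced from OT-I CTLs, mouse CD8+ T cells that carry 1 transgenic T-cell receptor against ovalbumin, in 7 groups of 5 biological replicates. All groups came from spleen CD8+ T cells that had been primed on anti-CD3 with anti-CD28 and expanded with IL-2, so every CTL had met IL-2 before. The first group was untreated cells at the start of the experiment, at 0 h. The other groups were kept for 24 h in medium of pH 7.4, pH 7 or pH 6.6, made acid with hydrochloric acid, either without IL-2 or with 200 IU/mL of murine IL-2. The study asked how acidity alters the CTL transcriptome and its response to IL-2, and no antigen is named for these 24 h cultures. The cells are therefore a model of rested or IL-2-fed effector cells of 1 specificity, not of cells at the moment of antigen contact.

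Interferon gamma (Ifng), tumor necrosis factor (Tnf) and lymphotoxin alpha (Lta) act on infected, tumor and immune cells, and GM-CSF (Csf2) acts on myeloid cells. IL-2 (Il2) is the growth factor that activated T cells make for themselves and for their neighbours. Ccl3, Ccl4 and Ccl5 attract T cells and myeloid cells, whereas Xcl1 attracts the dendritic cells that carry XCR1. In CTLs most of these genes are known to be switched on within hours of receptor signaling through NFAT, NF-kB and AP-1, and their mRNAs are short-lived. Ccl5 is known to differ, since it is turned on late and its mRNA is stored in memory and effector cells.

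The stretches of DNA just before 4 of the genes are shown because those were the cytokine genes whose mRNA was higher with IL-2 at each pH. Each line gives 250 bases before the RefSeq start site on GRCm38.p6, 5′ to 3′ on the gene's strand, with motif matches in capitals. For Csf2 the RefSeq window does not adjoin the gene as annotated in GENCODE, which starts at 54249667 on the minus strand. The bases between that position and the window were not searched.
Ifng (chr10:118440796-118441045, plus strand): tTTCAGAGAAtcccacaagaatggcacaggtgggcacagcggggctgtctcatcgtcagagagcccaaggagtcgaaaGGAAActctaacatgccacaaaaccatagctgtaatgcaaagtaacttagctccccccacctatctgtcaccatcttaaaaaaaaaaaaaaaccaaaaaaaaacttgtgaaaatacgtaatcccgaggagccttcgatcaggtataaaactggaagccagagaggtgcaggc
Tnf (chr17:35202008-35202257, minus strand): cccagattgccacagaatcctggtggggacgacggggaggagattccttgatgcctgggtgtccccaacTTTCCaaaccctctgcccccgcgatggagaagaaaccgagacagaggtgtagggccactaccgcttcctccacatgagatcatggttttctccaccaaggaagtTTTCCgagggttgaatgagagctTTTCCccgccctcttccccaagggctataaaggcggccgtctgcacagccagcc
Lta (chr17:35205352-35205601, minus strand): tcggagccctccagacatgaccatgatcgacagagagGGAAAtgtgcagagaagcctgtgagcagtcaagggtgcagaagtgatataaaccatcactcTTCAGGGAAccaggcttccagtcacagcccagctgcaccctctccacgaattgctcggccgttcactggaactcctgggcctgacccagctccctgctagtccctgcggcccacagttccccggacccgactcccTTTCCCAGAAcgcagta
Csf2 (chr11:54249900-54250149, minus strand): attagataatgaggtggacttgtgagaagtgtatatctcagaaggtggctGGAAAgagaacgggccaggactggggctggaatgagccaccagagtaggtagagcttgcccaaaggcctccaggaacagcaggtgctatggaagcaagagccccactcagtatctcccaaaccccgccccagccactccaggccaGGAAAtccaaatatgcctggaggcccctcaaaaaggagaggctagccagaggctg

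The capitals mark the NFAT core (GGAAA) and the STAT motif (TTCNNNGAA), searched on both strands together with AP-1 (TGANTCA), CRE (TGACGTCA), the T-box half-site (GGTGTG) and the NF-kB consensus. The NFAT core was found in each of the 4, at 1 place in Ifng, 3 in Tnf, 2 in Lta and 2 in Csf2, and it is common, since 55.6% of 32841 promoters of the same length held it. The STAT motif, to which STAT5 can bind downstream of the IL-2 receptor, was found in Ifng and at 2 places in Lta, against 7.02% of all promoters. The match of Lta nearest to the start site lay 16 to 8 bases before it and overlapped an NFAT core at 17 to 13 bases. The promoter of Xcl1 held the T-box half-site at 2 places, against 16.3% of promoters. None of the 7 members with a promoter sequence held the AP-1, CRE or NF-kB letters in this window, which 6.75%, 1.55% and 3.90% of promoters held. These matches are descriptions of the sequence only, and for Csf2 of a stretch that lies apart from the annotated gene.

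On GRCm38 the genes lay on 5 chromosomes, and several were neighbours. Tnf (chr17:35199381-35202007) and Lta (chr17:35203165-35205351) lay 1.16 kilobases apart on the minus strand. Ccl3 (chr11:83647844-83649355, minus strand) and Ccl4 (chr11:83662584-83664683, plus strand) lay 13.2 kilobases apart, and Ccl5 (chr11:83525778-83530518, minus strand) lay 117 kilobases from Ccl3. Csf2 (chr11:54247271-54249667) lay on the minus strand of the same chromosome, Ifng on the plus strand (chr10:118441046-118445892), and Il2 (chr3:37120523-37125959) and Xcl1 (chr1:164931644-164935527) on the minus strand. Part of the Ifng exons, 25.9%, was shared on the same strand with the gene model Gm49751, which the count tables do not list, so reads there may have been lost or counted differently. Csf2 and Xcl1 overlapped antisense gene models that held at most 2 counts in any library. Of short windows cut from the Il2 transcripts, 87.4% were found in no other gene, and the others were shared with Ntan1. Ntan1 had 2114 to 4381 counts per library, and its part in the Il2 count was not tested.

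The total count on genes was 16721319 to 34033340 per library (median 24730020), so that 3 counts, taken as the floor, were 0.0881 to 0.179 CPM, the count scaled to a common library size. Intervals and floors of this kind cover counting error only. CD8+ T-cell markers (Cd3d, Cd3e, Cd3g, Cd247, Cd8a, Cd8b1, Lck and Lat) were over the floor in 35 of 35 libraries, with a summed level of 3117 to 5642 CPM. The B-cell genes Ms4a1 and Pax5 and the hemoglobin gene Hbb-bs were at 0 in all 35 libraries, and Lyz2 and Csf1r of macrophages did not pass 0.286 CPM. The dendritic-cell list summed to 53.2 to 139 CPM at 0 h and to 13.7 to 60.7 CPM at 24 h, with H2-Ab1 at 7.76 to 137 CPM and with Clec9a and Xcr1 at or under 0.195 CPM. Its other genes were Zbtb46 with 0.0732 to 31.3 CPM, H2-Aa with 0.366 to 20.1 CPM and Flt3 with at most 6.40 CPM. The granulocyte and mast-cell list summed to 1.09 to 20.8 CPM, with S100a8 and S100a9 at 0 in 33 libraries each. Of the same list, Cpa3 had 0.405 to 16.8 CPM and Mcpt8 0.227 to 7.94 CPM, with no library at 0. Ly6g was at or under 2.28 CPM and Ms4a2 at or under 0.0421 CPM. The NK list summed to 8.27 to 94.9 CPM, nearly all of it Klrb1c, with Ncr1 at or under 0.0694 CPM. The B-cell list summed to 1.02 to 6.10 CPM and the macrophage and monocyte list to 5.47 to 33.7 CPM, of which Cd68 had 4.95 to 31.9 CPM. The CD4 and regulatory T-cell list summed to 17.4 to 63.7 CPM and the erythroid and megakaryocyte list to at most 0.235 CPM. In bulk RNA, fewer cells that express a gene and less of its RNA per cell cannot be told apart, and this holds for every value given here. No pair of libraries within a group was a duplicate.

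Compared per length, in CPM per kilobase of exon (RPKM), the order of the genes depended on IL-2. At pH 7.4 with IL-2 the mean RPKM was 72.1 ± 18.3 (SD, n = 5) for Lta, 43.2 ± 2.14 for Tnf, 35.6 ± 28.7 for Xcl1, 18.02 ± 3.89 for Ifng and 16.8 ± 3.29 for Ccl5. At pH 7.4 without IL-2 it was 189 ± 32.96 (SD, n = 5) for Ccl5, 35.1 ± 12.3 for Xcl1, 11.1 ± 4.61 for Tnf, 9.48 ± 0.694 for Lta and 5.54 ± 3.27 for Ifng. At pH 7.4, Ccl5 was thus the most abundant member per length without IL-2 and stood below Lta and Tnf with it, whereas at pH 6.6 with IL-2 its mean was 72.2 RPKM, above Tnf at 24.1 and Lta at 12.1 RPKM. Ccl3 stayed at or under a mean of 4.34 RPKM in all 7 groups, and Csf2 at or under 7.91 RPKM.

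**Figure D1:**
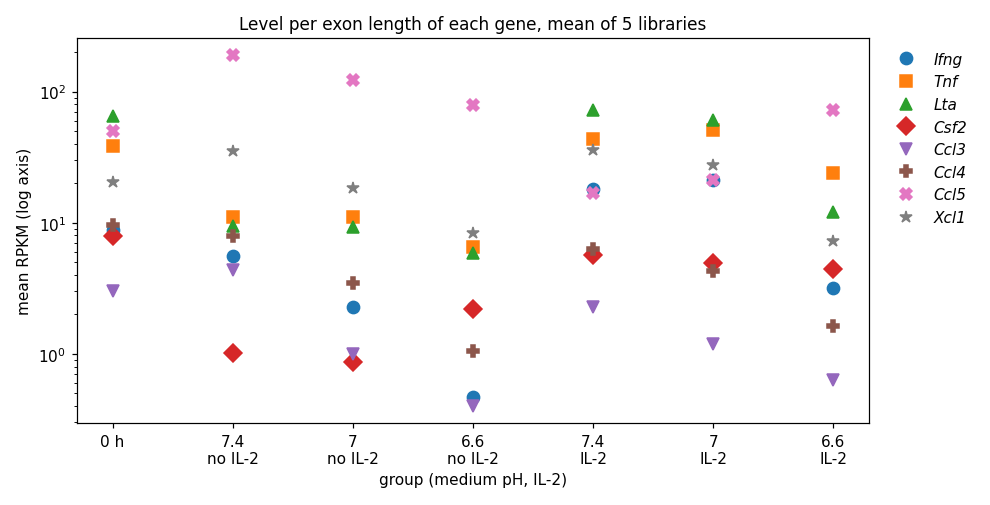
Mean RPKM of the 8 tested genes (log axis) in each of the 7 groups, each point a mean of 5 libraries without its spread. Ccl5 lies highest in the 3 groups without IL-2 and in the pH 6.6 group with it, and Lta lies highest at 0 h and in the groups with IL-2 at pH 7.4 and pH 7.

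Il2 itself was at or near the floor. Its count was 0 to 8 per library, with sums over 5 libraries of 14 at 0 h, 18, 11 and 9 at pH 7.4, pH 7 and pH 6.6 without IL-2, and 9, 16 and 15 with IL-2. It was therefore not tested in the main analysis, and no change in it was detectable at this depth. With a filter of at least 1 count in any library it was tested, and none of 13 comparisons passed (edgeR, adjusted p of 0.194 or more, with 0 at an unadjusted p under 0.05).

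**Figure D2:**
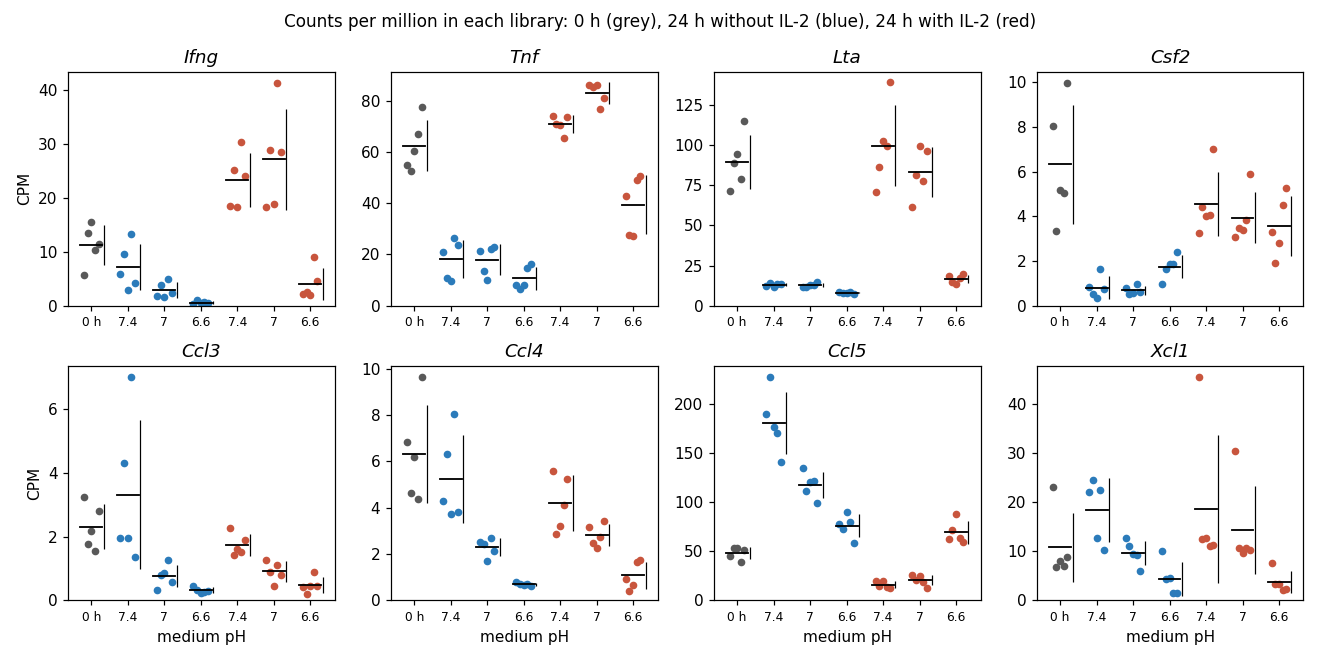
CPM of the 8 tested genes in each library, with the mean (bar) and SD (vertical line) of each group of 5, for 0 h (grey) and for 24 h at 3 pH values without IL-2 (blue) and with IL-2 (red). Ifng, Tnf and Lta are high with IL-2 at pH 7.4 and pH 7, and Ccl5 is high without IL-2.

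The first comparison asked what acidity did to these genes in CTLs given IL-2. At pH 6.6 with IL-2, 6 of the 8 tested members were lower than at pH 7.4 and 1, Ccl5, was higher (edgeR quasi-likelihood test, Benjamini-Hochberg adjusted p under 0.05 over 13819 genes). Of all genes tested, 40.9% were lower and 35.4% higher in this comparison, so that most genes moved. The median log2 fold change was -1.91 over the 8 tested members and -0.07 over all genes. The macrophage and monocyte list moved with pH as well, with a sum of 5.47 to 11.4 CPM at the higher and 16.6 to 31.4 CPM at the lower pH, and so did the CTL genes Gzma, Gzmb, Prf1 and Nkg7, with 9974 to 13500 and 2004 to 3641 CPM. The NK list, nearly all Klrb1c, had 43.0 to 45.8 and 19.3 to 33.2 CPM. Their part in the members' values was not tested.

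Ifng had 18.5, 25.2, 18.4, 30.4 and 24.1 CPM in the 5 libraries at pH 7.4 with IL-2 and 2.14, 2.60, 1.97, 9.08 and 4.66 CPM at pH 6.6. The groups did not overlap, and replicate 4 was the highest library in both. The log2 fold change was -2.61 ± 0.27 (SE), that is 6.12-fold lower (edgeR, adjusted p = 2.71e-10), and it had this direction in 5 of 5 pairs of same-numbered libraries.

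Lta had 71.0, 86.5, 102, 99.5 and 139 CPM at pH 7.4 with IL-2 and 18.5, 14.7, 13.7, 17.5 and 19.5 CPM at pH 6.6. Every library at pH 6.6 was far below every library at pH 7.4. Its log2 fold change was -2.55 ± 0.12 (SE, edgeR adjusted p = 4.82e-19). Its neighbour Tnf had 74.0, 71.0, 70.6, 65.2 and 73.6 CPM at pH 7.4 and 42.8, 27.8, 27.1, 49.03 and 50.7 CPM at pH 6.6. The groups did not overlap either, but the change was smaller, with a log2 fold change of -0.91 ± 0.18 (SE, edgeR adjusted p = 4.46e-05). Csf2 had 3.24 to 7 CPM at pH 7.4 and 1.92 to 5.29 CPM at pH 6.6, with overlapping groups and a log2 fold change of -0.39 ± 0.22 (SE, edgeR adjusted p = 0.112). Without replicate 4 the Csf2 difference was -0.53 and passed the threshold (edgeR, adjusted p = 0.0418), and over its alternatives the adjusted p was 0.0418 to 0.654.

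Among the chemokines, Ccl3 had 2.27, 1.42, 1.60, 1.53 and 1.90 CPM at pH 7.4 with IL-2 and 0.404, 0.200, 0.461, 0.904 and 0.458 CPM at pH 6.6, which was 5 to 22 counts per library. Ccl4 had 5.60, 2.85, 3.20, 4.09 and 5.24 CPM and then 0.924, 0.400, 0.671, 1.64 and 1.75 CPM. Neither gene's groups overlapped. The log2 fold changes were -1.86 ± 0.39 (SE) for Ccl3 and -1.96 ± 0.26 (SE) for Ccl4 (edgeR, adjusted p = 6.75e-05 and 3.88e-08). Xcl1 was lower as well, with a log2 fold change of -2.22 ± 0.27 (SE, edgeR adjusted p = 1.33e-08), from 45.4, 12.5, 12.8, 11 and 11.3 CPM to 7.68, 3.32, 3.40, 2.10 and 2.37 CPM. Its replicate 1 stood above the others in both groups, and even that library at pH 6.6 lay below the lowest at pH 7.4.

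Ccl5 moved the other way. It had 19.5, 14.99, 19.5, 13.6 and 12.9 CPM at pH 7.4 with IL-2 and 62.7, 72.0, 88.4, 63.7 and 59.6 CPM at pH 6.6. All 5 libraries at pH 6.6 were above all 5 at pH 7.4, and the log2 fold change was 2.11 ± 0.12 (SE), or 4.33-fold higher (edgeR, adjusted p = 8.02e-17).

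At the milder acidity of pH 7 with IL-2 present, 2 of the 8 tested members passed. Ccl5 was higher, with a log2 fold change of 0.33 ± 0.12 (SE, edgeR adjusted p = 0.0449), and Ccl3 was lower, with -0.97 ± 0.35 (SE, edgeR adjusted p = 0.0448), where 9.15% of all genes were higher and 9.83% lower. Both stood close to the threshold. Without the replicate block the adjusted p was 0.153 for Ccl5 and 0.0900 for Ccl3, and each lost its call without several of the replicates, with an adjusted p of 0.0906 to 0.156 for Ccl5 without replicates 1 to 4 in turn and 0.0595 to 0.209 for Ccl3 without replicates 1, 2, 3 and 5 in turn. In a fit of these 2 groups alone 7 members passed, and the shares of all genes given above are not from that fit. Its own share of all genes called is not given here, so the 7 cannot be set against it. Besides Ccl5 and Ccl3, Ifng and Tnf were above pH 7.4 there, at 0.21 and 0.25 on the log2 scale (edgeR, adjusted p = 0.0383 and 0.00275). Lta, Ccl4 and Xcl1 were below it, at -0.22, -0.53 and -0.28 (edgeR, adjusted p = 0.0276, 0.00415 and 0.0217). Tnf had 86.2, 85.1, 86.0, 76.5 and 80.9 CPM at pH 7, all above the 5 libraries at pH 7.4, and its log2 fold change was 0.23 ± 0.18 (SE, edgeR adjusted p = 0.388 with the spread shared over the 7 groups).

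Between pH 6.6 and pH 7 with IL-2, 5 members were lower and Ccl5 was higher, where 40.0% of all genes were lower and 32.5% higher. Ifng had 18.4, 28.9, 18.9, 41.4 and 28.5 CPM at pH 7, so its log2 fold change of -2.79 ± 0.27 (SE) was close to that against pH 7.4, with which it shares the pH 6.6 libraries. The Lta value was -2.30 ± 0.12 (SE), the Ccl5 value 1.78 ± 0.12 (SE), and that of Csf2 was -0.17 ± 0.22 (SE, edgeR adjusted p = 0.495). Ccl3 missed the threshold at -0.89 ± 0.42 (SE, edgeR adjusted p = 0.0547), and passed it without replicate 4, at -1.13 (edgeR, adjusted p = 0.0200).

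The same question was asked of CTLs kept without IL-2. At pH 6.6 without IL-2, 7 of the 8 tested members were lower than at pH 7.4 and 1, Csf2, was higher, where 35.4% of all genes were lower and 31.6% higher. The median log2 fold change was -1.76 over the 8 tested members and -0.03 over all genes. Marker sums moved here too. The CD8+ T-cell list went from 3879 to 4282 CPM at pH 7.4 down to 3117 to 3604 CPM at pH 6.6, without overlap. From the higher to the lower pH the 4 CTL genes went from 573 to 941 CPM up to 1365 to 1962 CPM, opposite to their direction with IL-2, and the dendritic-cell list from 13.7 to 20.2 CPM up to 38.4 to 53.99 CPM. The NK list went from 20.7 to 40.8 CPM down to 8.27 to 12.1 CPM, the granulocyte and mast-cell list from 5.75 to 20.8 CPM down to 1.18 to 5.64 CPM, and the macrophage and monocyte list from 10.6 to 19.7 CPM to 17.8 to 33.7 CPM, with overlap in the last. Their part in the members' values was not tested.

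Ifng had 5.91, 9.62, 2.96, 13.3 and 4.15 CPM at pH 7.4 and 0.421, 1.05, 0.454, 0.654 and 0.470 CPM at pH 6.6, which was 10 to 32 counts per library. The libraries at pH 6.6 were all lower, and the log2 fold change was -3.47 ± 0.35 (SE), or 11.1-fold lower (edgeR, adjusted p = 5.25e-10). Ccl3 had 1.97, 4.32, 1.95, 7.01 and 1.37 CPM at pH 7.4 and 0.463, 0.327, 0.227, 0.245 and 0.282 CPM at pH 6.6, for a log2 fold change of -3.33 ± 0.39 (SE, edgeR adjusted p = 8.26e-09). Ccl4 had 4.30, 6.32, 3.73, 8.05 and 3.81 CPM and then 0.799, 0.686, 0.681, 0.695 and 0.610 CPM, a log2 fold change of -2.90 ± 0.27 (SE, edgeR adjusted p = 5.46e-11). For both chemokines the groups were apart and replicates 2 and 4 were the highest at pH 7.4.

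Xcl1 was 4.82-fold lower, with a log2 fold change of -2.27 ± 0.27 (SE, edgeR adjusted p = 1.44e-08). It had 10.2 to 24.4 CPM at pH 7.4 and 1.46 to 9.97 CPM at pH 6.6. The groups did not overlap, but replicate 1 at pH 6.6 lay just under the lowest library at pH 7.4. Ccl5 had 190, 228, 177, 170 and 141 CPM at pH 7.4 and 78.0, 72.7, 90.3, 80.2 and 58.3 CPM at pH 6.6. It was lower in 5 of 5 pairs, with a log2 fold change of -1.26 ± 0.11 (SE, edgeR adjusted p = 2.09e-11), opposite to its direction with IL-2. Tnf and Lta changed less, with log2 fold changes of -0.76 ± 0.20 and -0.69 ± 0.12 (SE, edgeR adjusted p = 0.00114 and 8.56e-06). Tnf at pH 6.6 had 6.43 to 16.2 CPM, which overlapped the 9.69 to 26.4 CPM of pH 7.4.

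Csf2 had 0.840, 0.510, 0.339, 1.63 and 0.770 CPM at pH 7.4 without IL-2, or 8 to 39 counts, and 0.967, 1.63, 1.86, 1.88 and 2.39 CPM at pH 6.6. It was higher in 5 of 5 pairs although the groups overlapped, with a log2 fold change of 1.11 ± 0.28 (SE, edgeR adjusted p = 0.000896).

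**Figure D3:**
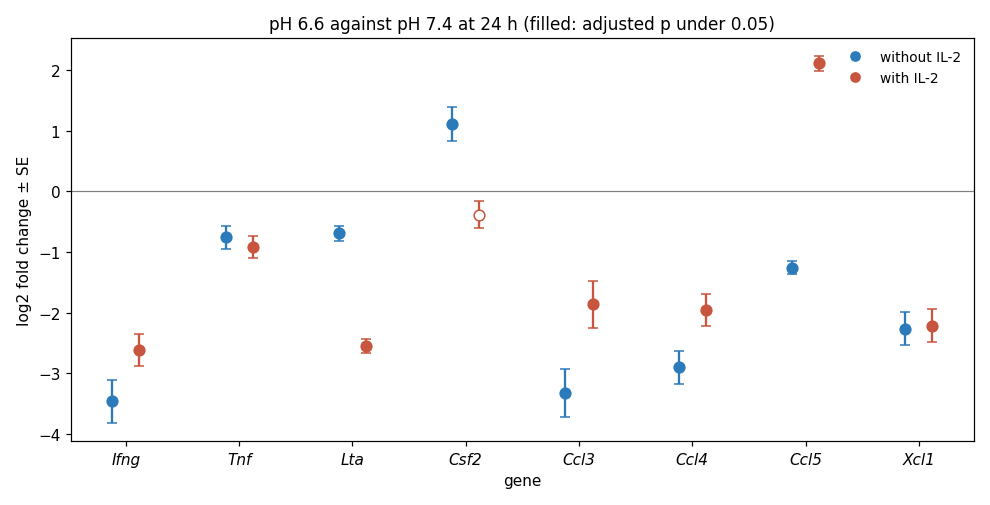
Log2 fold change (± SE) of each gene at pH 6.6 against pH 7.4, without IL-2 (blue) and with IL-2 (red), with filled points where the adjusted p was under 0.05. Ccl5 lies below 0 without IL-2 (-1.26) and above 0 with it (2.11), and Csf2 lies above 0 without IL-2 (1.11).

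At pH 7 without IL-2, 5 members were lower and 0 higher than at pH 7.4, where 0.318% of all genes were lower and 1.36% higher, that is 44 and 188 genes. Ccl3 had 0.336, 0.802, 0.857, 1.27 and 0.579 CPM at pH 7, all below the lowest library at pH 7.4, and a log2 fold change of -2.03 ± 0.34 (SE, edgeR adjusted p = 0.000848). For Ccl4 the value was -1.19 ± 0.23 and for Ccl5 -0.62 ± 0.11 (SE, edgeR adjusted p = 0.00303 and 0.00151), in both with groups that were apart. Ifng was lower in 5 of 5 pairs, by a log2 fold change of -1.28 ± 0.28 (SE, edgeR adjusted p = 0.00813), from 2.96 to 13.3 CPM down to 1.60 to 4.96 CPM with overlap. The Xcl1 value was -0.95 ± 0.25 (SE, edgeR adjusted p = 0.0404). Without the replicate block the calls of Ifng and Xcl1 were lost (edgeR, adjusted p = 0.200 and 0.984), and the number of members called was 3. Without replicate 2 it was 2, since Ifng, Ccl5 and Xcl1 had adjusted p of 0.0710, 0.0620 and 0.256, and Xcl1 also lost its call without replicates 3, 4 and 5 in turn (edgeR, adjusted p = 0.102, 0.182 and 0.0972). Tnf, Lta and Csf2 had log2 fold changes of -0.01 ± 0.19, -0.04 ± 0.12 and -0.22 ± 0.31 (SE, edgeR adjusted p of 0.991 or more).

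The next comparison asked what IL-2 did at each pH. At pH 7.4, 4 of the 8 tested members were higher with IL-2 and 2 were lower, where 39.3% of all genes were higher and 41.1% lower. The 4 higher members were Lta, Csf2, Tnf and Ifng, with log2 fold changes of 2.90 ± 0.12, 2.48 ± 0.26, 2.04 ± 0.19 and 1.78 ± 0.25 (SE, edgeR adjusted p from 7.57e-21 to 1.38e-07). Lta had 12.3, 14.2, 11.9, 13.6 and 13.5 CPM without IL-2 and 71.0 to 139 CPM with it. In each of the 4 genes the libraries with IL-2 were all above those without.

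Ccl5 fell by 3.50 ± 0.12 (SE) on the log2 scale with IL-2 at pH 7.4, that is 11.3-fold (edgeR, adjusted p = 2.35e-22), from 141 to 228 CPM down to 12.9 to 19.5 CPM. Ccl3 also passed as lower, with -0.84 ± 0.31 (SE, edgeR adjusted p = 0.0146), but in 3 of 5 pairs only and with overlapping groups. Its call was lost without replicate 2 and without replicate 4, at -0.67 and -0.41 (edgeR, adjusted p = 0.0895 and 0.224). The Ccl4 and Xcl1 values were -0.35 ± 0.22 and -0.21 ± 0.24 (SE, edgeR adjusted p = 0.144 and 0.428). Ccl4 passed without replicate 1 and without replicate 5, at -0.60 and -0.51 (edgeR, adjusted p = 0.0359 and 0.0436), and Xcl1 without replicate 1, at -0.58 (edgeR, adjusted p = 0.0275). The summed level of the same 4 CTL genes moved with IL-2 too, from 573 to 941 CPM without it to 9974 to 13500 CPM with it at pH 7.4. The dendritic-cell list moved from 13.7 to 20.2 CPM to 26.6 to 60.7 CPM and the NK list from 20.7 to 40.8 CPM to 43.0 to 45.8 CPM, and their part in the members' values was not tested.

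At pH 7, the 4 cytokine genes were again higher with IL-2 and Ccl5 lower, where 37.6% of all genes were higher and 39.5% lower. The log2 fold changes were 3.24 ± 0.27 for Ifng, 2.29 ± 0.19 for Tnf, 2.69 ± 0.12 for Lta, 2.48 ± 0.26 for Csf2 and -2.55 ± 0.12 for Ccl5 (SE, edgeR adjusted p from 7.43e-20 to 3.86e-10). At pH 6.6 the same 4 cytokine genes were higher and 0 members were lower, where 13.2% of all genes were higher and 10.6% lower. Ifng rose by a log2 fold change of 2.64 ± 0.37 and Tnf by 1.89 ± 0.20 (SE, edgeR adjusted p = 2.50e-06 and 1.19e-08). The values for Lta and Csf2 were 1.04 ± 0.12 and 0.98 ± 0.24 (SE, edgeR adjusted p = 6.98e-08 and 0.00272). The Ccl5 value was -0.13 ± 0.11 (SE, edgeR adjusted p = 0.437), and the libraries of the groups overlapped. Of the other members, 3 chemokine genes did not pass at pH 7 or at pH 6.6, with log2 fold changes between -0.16 and 0.63.

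**Figure D4:**
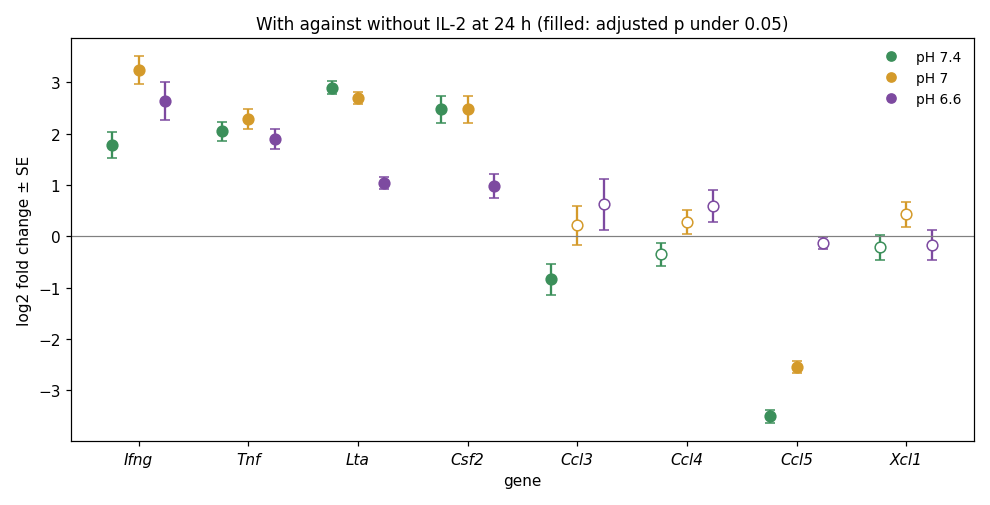
Log2 fold change (± SE) of each gene with against without IL-2 at pH 7.4 (green), pH 7 (yellow) and pH 6.6 (purple), with filled points where the adjusted p was under 0.05. The 4 cytokine genes are above 0 at each pH, and Ccl5 goes from -3.50 at pH 7.4 to -0.13 at pH 6.6.

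The difference between the effect of pH 6.6 with IL-2 and without it was tested as an interaction, which is also the difference between the IL-2 effects at those pH values. It passed for 5 members, 3 with a positive and 2 with a negative value, where 34.3% of all genes were positive and 32.8% negative, so that the share of members was near that of all genes. Ccl5 had the largest value of the 8, 3.37 ± 0.16 (SE, edgeR adjusted p = 8.39e-18), and it was positive in 5 of 5 replicates. Lta and Csf2 had -1.86 ± 0.17 and -1.49 ± 0.36 (SE, edgeR adjusted p = 1.40e-11 and 0.000493), negative in 5 of 5 replicates each, so that their gain with IL-2 was smaller at pH 6.6.

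Ccl3 and Ccl4 had 1.47 ± 0.59 and 0.94 ± 0.39 (SE, edgeR adjusted p = 0.0286 and 0.0320), positive in 4 of 5 replicates. Both calls were lost without replicate 4, at 0.65 and 0.54 (edgeR, adjusted p = 0.339 and 0.254), and that of Ccl3 also without replicate 3 (adjusted p = 0.0637) and that of Ccl4 without replicate 5 (adjusted p = 0.0759). The values of Ifng, Tnf and Xcl1 were 0.85 ± 0.45, -0.15 ± 0.27 and 0.05 ± 0.38 (SE, edgeR adjusted p = 0.0972, 0.623 and 0.919). Ifng passed without replicate 2 and without replicate 3, at 1.25 and 1.07 (edgeR, adjusted p = 0.0429 and 0.0262).

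Against the cells at 0 h, which had been expanded with IL-2, 2 members were higher and 2 lower after 24 h at pH 7.4 with IL-2, where 29% of all genes were higher and 30.9% lower. Ifng was higher at 1.00 ± 0.24 and Xcl1 at 0.71 ± 0.25, whereas Ccl5 was at -1.61 ± 0.12 and Ccl4 at -0.61 ± 0.22 (log2, SE, edgeR adjusted p from 3.55e-13 to 0.0166). The Xcl1 call was lost without the replicate block (adjusted p = 0.158), and that of Ccl4 without replicate 3 and without replicate 5 (adjusted p = 0.104 and 0.0566). Csf2, at -0.45, passed without replicate 2, at -0.66 (edgeR, adjusted p = 0.0192).

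After 24 h at pH 7.4 without IL-2, 2 members were higher and 4 lower than at 0 h, where 36.9% of all genes were higher and 38.3% lower. Ccl5 rose by a log2 fold change of 1.89 ± 0.11 from 45.3, 53.2, 53.2, 39.2 and 51.0 CPM, and Csf2, Lta and Tnf had values of -2.93 ± 0.26, -2.75 ± 0.12 and -1.83 ± 0.19 (SE, edgeR adjusted p from 9.65e-20 to 4.31e-10). Ifng, at -0.79 ± 0.25, and Xcl1, at 0.92 ± 0.25, passed with the replicate block (adjusted p = 0.00641 and 0.00151) and not without it (adjusted p = 0.107 and 0.140). Ifng also lost its call without replicate 3, at -0.37 (adjusted p = 0.156). Ccl3, at 0.41, passed without replicate 1, at 0.74 (adjusted p = 0.0402), and Ccl4, at -0.26, without replicate 4, at -0.54 (adjusted p = 0.0380).

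At pH 6.6, 7 members were lower than at 0 h and Ccl5 was higher, both with IL-2 (38.0% of all genes lower, 30.5% higher) and without it (40.3% lower, 34.8% higher). Ifng was at -1.62 ± 0.27 with IL-2 and at -4.25 ± 0.34 without it (log2, SE, edgeR adjusted p = 4.08e-06 and 1.45e-12). The Ccl5 values were 0.50 ± 0.11 and 0.63 ± 0.11 (SE, edgeR adjusted p = 0.000198 and 7.01e-06). These comparisons share the 0 h libraries.

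The order of the groups by mean level differed between members. For Ccl5 it ran from pH 7.4 without IL-2 (181 ± 31.6 CPM, SD, n = 5) through pH 7 (118 ± 13.03) and pH 6.6 without IL-2 (75.9 ± 11.8), pH 6.6 with IL-2 (69.3 ± 11.6), 0 h (48.4 ± 6.06) and pH 7 with IL-2 (20.4 ± 5.22) to pH 7.4 with IL-2 (16.1 ± 3.16). Of these neighbours, only the pH 6.6 groups with and without IL-2, and the pH 7 and pH 7.4 groups with IL-2, overlapped. For Lta, pH 7.4 with IL-2 (99.7 ± 25.3 CPM), 0 h (89.6 ± 16.7) and pH 7 with IL-2 (83.2 ± 15.4) overlapped one another. They stood above pH 6.6 with IL-2 (16.8 ± 2.495), pH 7.4 (13.1 ± 0.960) and pH 7 without IL-2 (12.8 ± 1.204), which overlapped in turn, and pH 6.6 without IL-2 was lowest (8.09 ± 0.326). For Tnf the mean level was highest at pH 7 with IL-2 (83.0 ± 4.17 CPM) and lowest at pH 6.6 without it (10.8 ± 4.47), and for Ifng the same groups were highest (27.2 ± 9.39) and lowest (0.609 ± 0.260). Csf2 was highest at 0 h (6.33 ± 2.65 CPM), Ccl4 at 0 h (6.33 ± 2.12), Ccl3 at pH 7.4 without IL-2 (3.32 ± 2.35) and Xcl1 at pH 7.4 with IL-2 (18.6 ± 15), where replicate 1 alone had 45.4 CPM.

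Across the 35 libraries the log2 CPM of Tnf and Lta correlated with r = 0.892, that of Ccl3 and Ccl4 with r = 0.912 and that of Lta and Ccl5 with r = -0.818. The libraries share 7 groups and 5 replicate numbers, so these are descriptions. By the same measure the genes most like Ccl5 were Heatr9 (r = 0.972), A930024E05Rik (r = 0.970) and Crebl2 (r = 0.968), and Heatr9 lies 3.60 kilobases from Ccl5 on the same strand. Those most like Ifng were Spp1 (r = 0.955), the gene of osteopontin, Pter (r = 0.945) and Gm12250 (r = 0.943). For Tnf they were Clnk, Ly6g5b and Adora3 (r = 0.960, 0.956 and 0.949), and Ly6g5b lies 84.0 kilobases from it. For Lta they included Stard4 and Phb (r = 0.986 and 0.985). For Csf2 they were Golga7, Maff and Gzma (r = 0.931, 0.926 and 0.925), the last of them the gene of granzyme A. After Ccl4, Ccl3 was most like Fbxl2 and Spryd7 (r = 0.820 and 0.818), Ccl4 was most like Rab29 (r = 0.913), followed by Ccl3 and Mllt11 (r = 0.910), and Xcl1 was most like Ifi44, Slx4ip and Rmi1 (r = 0.876, 0.859 and 0.856).

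The receptors through which the members act were measured in the same cells, and 11 of 16 listed genes were tested. At pH 6.6 with IL-2, 4 were higher and 4 lower than at pH 7.4, where 35.4% of all genes were higher and 40.9% lower, with a median log2 fold change of -0.06 against -0.07 over all genes. Both chains of the interferon gamma receptor were higher at pH 6.6 while Ifng was lower: Ifngr1 had 392 ± 18.9 CPM (SD, n = 5) at pH 7.4 and 1514 ± 159 CPM at pH 6.6, and Ifngr2 14.7 ± 3.97 and 51.0 ± 7.92 CPM, with log2 fold changes of 1.95 ± 0.09 and 1.8 ± 0.12 (SE, edgeR adjusted p = 1.91e-19 and 4.42e-15). The TNF receptor gene Tnfrsf1b was at 0.61 ± 0.07 and Tnfrsf14, which binds lymphotoxin alpha, at 0.78 ± 0.13 (SE, edgeR adjusted p = 5.50e-09 and 1.95e-06). Tnfrsf1a, at -0.16 ± 0.08, missed the threshold (adjusted p = 0.0812) but passed without replicate 5, at -0.21 (adjusted p = 0.0420).

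Of the IL-2 receptor chains, Il2rb was at -0.79 ± 0.10 and Il2ra at -0.61 ± 0.11 (SE, edgeR adjusted p = 8.43e-09 and 4.65e-06), and Il2rg at -0.06 ± 0.08 (adjusted p = 0.506). Csf2ra, of the GM-CSF receptor, was at -0.51 ± 0.16 (adjusted p = 0.00414), and its partner Csf2rb had a mean of 0.0510 CPM at pH 6.6 and 0.00694 CPM at pH 7.4 with IL-2, both under the floor.

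Without IL-2, 4 receptors were higher at pH 6.6 and 5 lower, where 31.6% of all genes were higher and 35.4% lower. The median was 0.04 against -0.03 over all genes. Ifngr1 and Ifngr2 were again higher, at 0.67 ± 0.08 and 1.24 ± 0.12 (SE, edgeR adjusted p = 2.00e-08 and 6.08e-11). Tnfrsf1b was at 0.47 ± 0.07 and Il2ra at 0.65 ± 0.11, while Il2rb was at -0.51 ± 0.10, Tnfrsf14 at -1.03 ± 0.12 and Csf2ra at -1.68 ± 0.15 (SE, edgeR adjusted p from 3.89e-11 to 2.45e-05). Csf2rb was lower too, with a mean of 1.02 ± 0.602 CPM (SD, n = 5) at pH 7.4 and 0.0430 CPM at pH 6.6. Tnfrsf1a and Il2rg were at 0.12 ± 0.08 and 0.04 ± 0.08 (adjusted p = 0.198 and 0.613). With IL-2 at pH 7.4, 5 receptors were higher and 6 lower than without it, where 39.3% of all genes were higher and 41.1% lower. Among these receptors, Il2ra was at 1.58 ± 0.11 and Ifngr1 at -1.52 ± 0.08 (SE, edgeR adjusted p = 5.15e-15 and 2.62e-17). The call of Il2rg, at 0.23, was lost without replicate 1, at 0.09 (adjusted p = 0.261), and that of Ifngr2, at -0.40, without replicate 3, at -0.30 (adjusted p = 0.0544).

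The target genes of these cytokines moved unlike one another. Of 21 tested interferon gamma targets, 15 were lower and 4 higher at pH 6.6 with IL-2 (against pH 7.4), with a median log2 fold change of -0.82, against 40.9% and 35.4% of all genes and a median of -0.07. Without IL-2 13 were lower and 2 higher, with a median of -0.58, against 35.4% and 31.6% of all genes and a median of -0.03. The most abundant were B2m and H2-K1, of antigen presentation, and Gbp4, a guanylate-binding protein. Gbp4 was at -0.82 ± 0.14 with IL-2 and -1.07 ± 0.14 without it, whereas H2-K1 was higher, at 0.68 ± 0.08 and 0.53 ± 0.08 (SE, edgeR adjusted p from 1.03e-08 to 1.93e-06). B2m was at -0.35 ± 0.11 with IL-2 (adjusted p = 0.00359), a call lost without replicate 1, at -0.23 (adjusted p = 0.0813), and at -0.14 ± 0.11 without IL-2 (adjusted p = 0.239).

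Of 15 targets of TNF and NF-kB, 14 were higher and 1 lower at pH 6.6 with IL-2, with a median of 1.08, where 35.4% of all genes were higher and 40.9% lower. Without IL-2 12 were higher and 0 lower, with a median of 0.78, where 31.6% of all genes were higher and 35.4% lower. Tnf itself was lower in both comparisons. Tnfaip3, an inhibitor of NF-kB, had 44.5 ± 6.25 CPM (SD, n = 5) at pH 7.4 and 626 ± 109 CPM at pH 6.6 with IL-2, and 225 ± 30.99 and 952 ± 98.4 CPM without it, with log2 fold changes of 3.83 ± 0.16 and 2.09 ± 0.15 (SE, edgeR adjusted p = 8.07e-20 and 1.17e-13). Birc2 was at 2.40 ± 0.10 and 1.54 ± 0.10 and Traf1 at 1.996 ± 0.09 with IL-2 (SE, edgeR adjusted p from 1.46e-19 to 1.84e-14), and Traf1 without IL-2 at 0.13 ± 0.08 (adjusted p = 0.168). With IL-2 at pH 7.4, 2 targets of TNF and NF-kB were higher and 11 lower than without it, while 7 interferon gamma targets were higher and 8 lower, against 39.3% of all genes higher and 41.1% lower.

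RNA-binding repressors destabilize or silence cytokine mRNAs. Of 11 such genes, 9 were higher and 2 lower at pH 6.6 with IL-2, with a median log2 fold change of 1.03, where 35.4% of all genes were higher and 40.9% lower. Without IL-2 4 were higher and 3 lower, with a median of 0.23, where 31.6% of all genes were higher and 35.4% lower. Zfp36l2 was at 0.66 ± 0.09 with IL-2 and -0.45 ± 0.09 without it (SE, edgeR adjusted p = 1.15e-07 and 7.94e-05). Pdcd4, an inhibitor of translation, was at 1.88 ± 0.10 with IL-2 and Hnrnpd, which binds AU-rich elements, at -1.49 ± 0.10 (SE, edgeR adjusted p = 3.43e-17 and 1.51e-14). Without IL-2 they were at -0.12 ± 0.10 and 0.10 ± 0.10 (adjusted p = 0.270 and 0.378). With IL-2 at pH 7.4, 2 of the 11 were higher and 8 lower than without it, with a median of -1.11, against 39.3% of all genes higher and 41.1% lower.

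Of 30 transcription factors of cytokine genes, 11 were higher and 11 lower at pH 6.6 with IL-2 (median 0.10), 9 higher and 11 lower without IL-2 (median -0.03), and 12 higher and 9 lower with IL-2 at pH 7.4 (median 0.03). In the same order, 35.4%, 31.6% and 39.3% of all genes were higher and 40.9%, 35.4% and 41.1% lower, and the same shares stand beside the cytokine and chemokine lists that follow. Id2 was at -0.92 ± 0.10 and -0.81 ± 0.10 in the pH comparisons with and without IL-2 (SE, edgeR adjusted p = 6.41e-10 and 2.04e-08). Nfatc3 was at 0.70 ± 0.11 with IL-2 (adjusted p = 6.88e-07) and 0.19 ± 0.11 without it (adjusted p = 0.113). Nfkb1 was at 0.09 ± 0.05 with IL-2 (adjusted p = 0.128) and passed without replicate 1 and without replicate 2, at 0.14 and 0.17 (adjusted p = 0.0378 and 0.0274), and with RLE or library totals scaling, at 0.15 and 0.16, and it was at -0.01 ± 0.05 without IL-2 (adjusted p = 0.9).

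Of 19 other T-cell cytokine genes tested of 29 listed, 8 were higher and 7 lower at pH 6.6 with IL-2 (median 0.10), 4 higher and 8 lower without IL-2 (median 0.06), and 10 higher and 8 lower with IL-2 at pH 7.4 (median 0.70). The most abundant were Il16, Ltb and Tnfsf8, of which Ltb encodes lymphotoxin beta, the membrane partner of lymphotoxin alpha. Ltb had 401 ± 47.9 CPM (SD, n = 5) at pH 7.4 and 230 ± 28 CPM at pH 6.6 without IL-2, and 91.8 ± 14.5 and 193 ± 23.6 CPM with it. Its interaction value was 1.88 ± 0.20 (SE, edgeR adjusted p = 1.11e-09), against -1.86 for Lta. Il16 and Tnfsf8 had interaction values of 0.92 ± 0.09 and 1.10 ± 0.15 (SE, edgeR adjusted p = 1.16e-10 and 6.05e-08).

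Only 6 of 23 other chemokine genes were tested, and their levels were low. At pH 6.6 with IL-2, 4 were higher and 1 lower (median 1.06), without IL-2 2 were higher and 3 lower (median -0.32), and with IL-2 at pH 7.4 0 were higher and 4 lower (median -1.33). Ccl25 had 4.13 ± 0.762 CPM (SD, n = 5) at pH 7.4 and 6.06 ± 2.45 CPM at pH 6.6 with IL-2, a log2 fold change of 0.51 ± 0.12, and Ccl27a was at 1.61 ± 0.27 (SE, edgeR adjusted p = 0.000274 and 1.93e-06). Cxcl10, an interferon-induced chemokine, was at -0.94 ± 0.39 with IL-2 (SE, edgeR adjusted p = 0.0278), a call lost without replicates 1, 2 and 5 in turn (adjusted p = 0.0675 to 0.208). Without IL-2 it was at -1.04 ± 0.40 (adjusted p = 0.0224), lost without replicates 2, 4 and 5 in turn (adjusted p = 0.0599 to 0.0982), and Ccl27a was at 0.62 ± 0.23 (adjusted p = 0.0167), lost without replicate 1 (adjusted p = 0.0638).

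**Figure D5:**
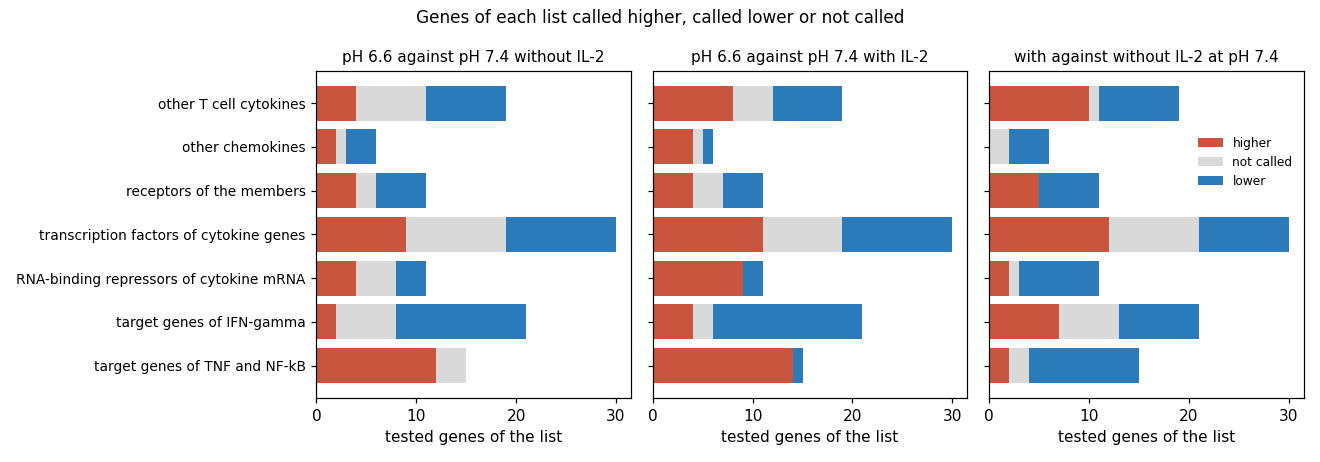
Number of tested genes of each list (rows) called higher (red), not called (grey) or called lower (blue) in 3 comparisons. Targets of TNF and NF-kB are mostly higher at pH 6.6, with 12 of 15 without IL-2 and 14 of 15 with it, and interferon gamma targets mostly lower, with 13 and 15 of 21.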

How the data were processed

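RNA was extracted after removal of dead cells, and stranded polyadenylated libraries were sequenced as single reads on a HiSeq 2500. The authors deposited 1 table of raw counts per library for 35 libraries, without normalization. The submitters' processing notes name cutadapt 1.8, STAR 2.5.2b, HTSeq 0.6.1 and GRCm38. The annotation, strand setting and read length are not given in the sources used here. Closing rows that name no gene were left out, and reads aligned to several places had not been counted on genes. The closing row for such alignments held 32.8% to 48.3% of the sum of all rows. That is a share of reads only if each such read was entered once.

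Symbols and coordinates came from GENCODE M21, and 48349 identifiers matched. The 9 members and the lists were chosen with earlier results of these data known. Named genes were the 9 members, for each tested member the 3 genes with the highest Pearson r of log2 CPM (prior count 2), every tested receptor, and the 3 most abundant tested genes of each other list. Some genes stand in more than one list. A few genes that this rule names are not reported here.

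In R 4.3.3, edgeR 4.0.16 kept 13819 genes (filterByExpr, minimum count 10) and normalized by TMM. A quasi-likelihood fit (robust) of the 35 libraries had the replicate number as a block, after the paired tests of the study. Its standard errors were the log2 fold change divided by the square root of F, and Benjamini-Hochberg adjustment ran over all tested genes with a threshold of 0.05. After subtraction of group means, libraries with the same number correlated at r over 0.1 in 95 of 105 pairs (median 0.273, against -0.075 for different numbers), and in every pair for 8 of 12 comparisons. The 70 pairs of libraries within groups were checked for duplicates. CPM used TMM-scaled library sizes, and RPKM the summed exon length. The model was tested on simulated data for pH 6.6 against pH 7.4 with IL-2, where 169 of 194 changed genes and 7 unchanged genes were called among 13380 tested, with 126 of 130 called among those changed by 1 or more on the log2 scale. The simulation gave every gene the same dispersion and no replicate effect, and it changed few genes. In these points it differed from the data, so its rates need not hold for the members. Alternatives were RLE, library totals only, DESeq2 1.42.0, other filters (at least 1 count in any library, at least 10 in every library), only the groups compared, no block, each replicate left out, and a required log2 fold change of 1 or more in size. In the main fit, each p-value sets a difference against the spread between these cultures that remains after the replicate block. That spread was estimated over the 7 groups together.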

Additional observations from a re-analysis of the deposited data

Results flagged for a closer look

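In 56 sets of 5 libraries (8 genes by 7 groups), 5 held a library that stood far from the other 4 by Dixon's test. Chance marks about 1 in 20 such sets. Of these, 4 were Xcl1 in replicate 1, with 23.1 CPM at 0 h, where the next library had 8.82 CPM, 45.4 CPM at pH 7.4 with IL-2 (next 12.8), 30.3 CPM at pH 7 with IL-2 (next 10.6) and 7.68 CPM at pH 6.6 with IL-2 (next 3.40). The remaining one was Csf2 in replicate 5 at pH 7 with IL-2, with 5.92 CPM (next 3.84).

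By the interaction test, 5 genes responded differently to pH 6.6 in the presence and absence of IL-2, out of 8 tested, where 34.3% of all genes passed with a positive and 32.8% with a negative value, so that the share of members was near that of all genes. The difference of log2 fold changes, with minus without IL-2, was 3.37 ± 0.16 (SE) for Ccl5, 1.47 ± 0.59 for Ccl3, 0.94 ± 0.39 for Ccl4, -1.49 ± 0.36 for Csf2 and -1.86 ± 0.17 for Lta (edgeR, adjusted p from 8.39e-18 to 0.0320).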

How the results depend on the processing

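Of the 13 counts of members called, 8 stayed within 1.5 times under every alternative run. At pH 7 with IL-2 the count of 2 became 1 with library totals only, 0 with the looser filter, 1 with the stricter filter (6 members tested, since Csf2 and Ccl3 dropped out), 7 with only the groups compared, 0 without the replicate block, 0 with a log2 fold change of at least 1, and 0 to 1 without each replicate in turn. At pH 7 without IL-2 the count of 5 became 3 without the replicate block, 3 with the fold requirement, and 2 to 5 without each replicate. The interaction count of 5 became 3 with the looser filter, 3 with the stricter filter, and 3 to 6 without each replicate. Against 0 h, the fold requirement left 1 of 4 at pH 7.4 with IL-2 and 5 of 8 at pH 6.6 with IL-2. The causes were not tested, beyond the fewer members or the added requirement where those alternatives consist of them.

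Over single members and settings, 1162 values stayed on the same side of the threshold, 39 lost the call and 21 gained it. Of the values called in either fit, 0 reversed in direction. The 1162 include uncalled values that changed sign, as for Xcl1 in the interaction, with -0.28 to 0.54 over its alternatives. Without the replicate block, 7 member calls were lost, all named above. In 4 comparisons (IL-2 at pH 7, and 3 of those against 0 h) not every pair passed r = 0.1. With library totals only, the median of all genes went from 0.04 to 0.27 in the interaction, from -0.03 to -0.19 at pH 6.6 without IL-2, and from -0.04 to -0.20 and -0.16 for IL-2 at pH 7.4 and pH 7. This scaling moved the share of calls that were higher from 48.2% to 65.7% at pH 7 with IL-2, from 47.2% to 34.7% at pH 6.6 without IL-2, from 55.5% to 74.6% for IL-2 at pH 6.6 and from 51.1% to 62.8% in the interaction. Counts of 5 to 39 per library limit Ccl3 and Csf2 in the lowest groups, and Il2 cannot be judged.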
